A study of Danio rerio with 10 samples.

Results

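The keratins and other intermediate filament genes were taken by gene symbol from the gene list of a single-cell RNA sequencing study of zebrafish embryos. Symbols that begin with krt and a digit, cyt1, lmna or lmnb were taken, together with vim, gfap, desma, desmb, prph, inaa, inab, nefma and nefmb. This gave 34 genes of 25107, namely 22 keratin symbols, 3 lamins and 9 others. The rule itself uses symbols and no measured value, but it was chosen with earlier results of these data known. In cells that passed quality control 33 of them were found in enough cells to be kept, and the remaining gene, desmb, had 3 unique molecular identifiers (UMIs) in all.

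Intermediate filaments are ropelike polymers that give cells and nuclei mechanical strength. Keratins form them in epithelia as pairs of an acidic type I and a basic type II chain, desmin forms them in muscle, vimentin in mesenchyme and neural progenitors, glial fibrillary acidic protein in glia, and neurofilament chains in neurons, while lamins line the nucleus of nearly every cell. In the zebrafish embryo the outermost epithelium, which forms the periderm, is known for early and strong keratin expression.

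Whole embryos were dissociated, 1 embryo per library, with the strain labelled Tubingen and the stage labelled as 3 somites. The groups were 4 wildtype embryos, 3 compound mutants of genotype dact1-/-;dact2-/- (dact1/2 mutants hereafter) and 3 gpc4-/- mutants. The dact genes encode scaffold proteins that bind Dishevelled in Wnt signaling, and gpc4 encodes a cell surface heparan sulfate proteoglycan that acts in the same noncanonical pathway. Mutant embryos were recognised by their truncated axis, so the labelled genotypes rest on that phenotype. The labels do not say that the embryos of a group came from separate clutches, so p-values measure the spread between these embryos only.

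Across embryos 942 to 2634 cells were kept, 16449 of 21980 droplets in all, with 10168109 to 18839132 UMIs per embryo, and 29 of the kept barcodes occurred in more than 1 library. Levels below are in CPM, the UMIs of a gene per 1000000 UMIs of the cells summed. In the whole embryo dact1 was at 2.6 to 3 CPM in dact1/2 mutants and at 5.7 to 8 in all others, gpc4 at 13.5 to 17.7 CPM in gpc4 mutants and at 49.4 to 78.8 in all others, and dact2 at 42.7 to 87.9 CPM with overlap between all groups. Wildtype replicate 1 stood apart, with a root mean square distance of 0.744 on the log2 scale from the other wildtype embryos against 0.460 to 0.468 for each of these. Comparisons with wildtype were made with replicates 2, 3 and 4, a choice that most calls depend on. The value with all 4 embryos is given beside each gene called.

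Cells were clustered without the 34 genes, so that the levels of these genes did not place a cell. Filament genes that the rule does not take were not removed. From markers of known cell classes 22 of 28 clusters were named. The periderm-like cluster held 7 periderm markers among its 20 leading genes, and 11 keratins reached 10 CPM or more in a class and were highest in this one. Filament genes took a median of 3.67% of the UMIs of a periderm-like cell (223 cells, median 5423 UMIs), with a 10th percentile of 0.982%, a 90th of 17.8% and a maximum of 26.8%. Medians in the other classes lay between 0.053% in presomitic mesoderm-like cells and 0.559% in cluster 26, an unnamed cluster led by foxi3b and foxi3a.

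The most abundant member was krt4, a type II keratin, at 11260 ± 3954 CPM in wildtype periderm-like cells (SD, n = 4) and 1929 CPM in epidermis-like cells. The type II keratins krt5 and krt8 followed it there at 5099 ± 2578 and 2137 ± 528.4 CPM. Of the type I keratins, krt18a.1 was at 4871 ± 1682 CPM, cyt1 at 3440 ± 2557, cyt1l at 2347 ± 1247 and krt17 at 2329 ± 989.5. The same class led for krt92 (2440 ± 557 CPM), krt97 (633.7 ± 121.5), krt99 (613.6 ± 85.5) and krt91 (391.2 ± 720). For krt91 the mean was 31.21 CPM without wildtype replicate 1, and its range overlapped that of hatching gland-like cells, the next class at 99.47 CPM. Down the order of means from krt4 to krt8 the range of each gene over the 4 embryos overlapped that of the next, krt8 lay above krt97 in every one, and krt97 and krt99 overlapped.

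Outside the periderm the keratins differed in how far they reached into other epithelia. The level of krt17 fell to 128.6 CPM in the next class, epidermis-like cells, and that of krt5 to 292.4, whereas cyt1 was still at 997.1 CPM there, and its ranges over embryos in both classes overlapped. In endoderm-like cells krt18a.1 was at 1229 CPM and krt8 at 718.1, the type I and type II partners of simple epithelia. The second class for krt8 was cluster 26, at 844.2 CPM, and that for krt97 was preplacodal-like cells, at 282.2 CPM. No other class reached 100 CPM of krt99. Levels of different genes are set beside each other here as UMIs, which in 3' libraries do not scale with transcript length.

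**Figure D1:**
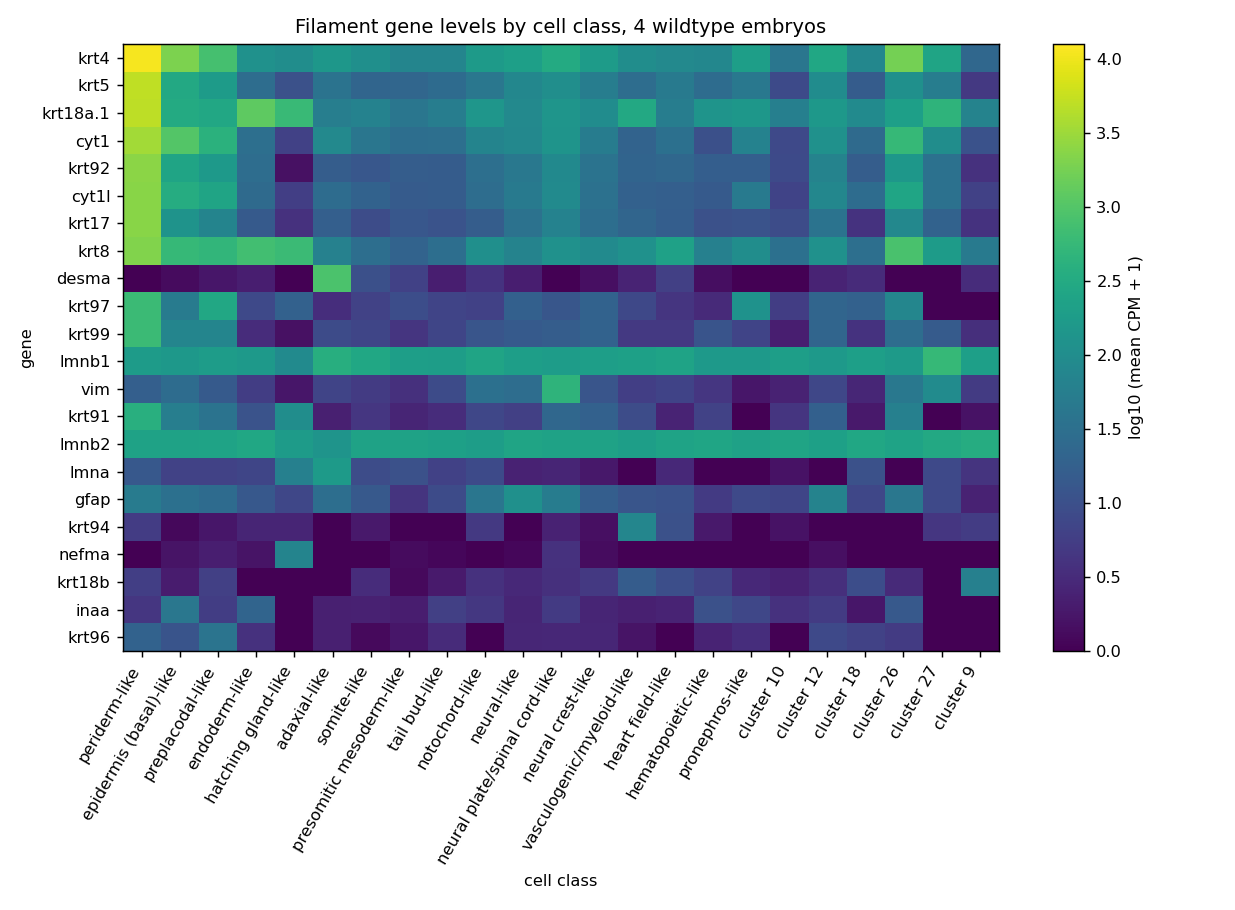
Mean level over the 4 wildtype embryos of the 22 filament genes that reached 10 CPM in a cell class, as log10 of CPM plus 1, with genes in rows and classes in columns. The 11 keratins led by periderm-like cells form the bright first column, lmnb1 and lmnb2 run across all classes, and desma is bright in adaxial-like cells alone.

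The 34 genes all matched the RefSeq annotation of GRCz12tu, which was used for gene order only. Among protein-coding genes krt92, cyt1l, cyt1, krt17 and krt91 lie in 1 uninterrupted run, and all of them were highest in periderm-like cells. Another run holds krt5, krt8, krt18a.1 and krt18a.2, of which the last had 10 UMIs in all embryos together. The run of krt93, krt94, krt98, krt15 and krt99 was mixed, since krt99 led in periderm-like cells, krt94 in vasculogenic/myeloid-like cells, and the other members stayed below 10 CPM in every class. In the run of krt222, krt97 and krt96, the level of krt96 was highest in preplacodal-like cells at 36.1 ± 20.1 CPM (SD, n = 4). Neighbouring keratins are similar in sequence, so reads may be shared or lost among them in counting.

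Lamins showed the opposite spread, with 2 of the 3 present throughout the embryo. The B-type lamin lmnb1 reached 100 CPM in 22 of the 23 classes, with 365.7 CPM in adaxial-like cells and a lowest mean of 90.75 CPM in hatching gland-like cells, and lmnb2 reached it in all 23, from 133.5 CPM in adaxial-like cells to 338.4 ± 80.65 in cluster 9, an unnamed cluster led by foxl2a and pitx3. The highest mean of lmnb1, 553.5 ± 394 CPM in cluster 27, rests on 49 wildtype UMIs. The A-type lamin lmna was restricted, with 173.6 ± 35.22 CPM in adaxial-like cells and 59.72 in hatching gland-like cells.

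The other filament genes were highest in different classes. For desma and inaa the leading class did not overlap the next in its range over wildtype embryos, whereas for vim, gfap, nefma and krt18b it did. The muscle gene desma was at 883 ± 72.75 CPM in adaxial-like cells, the first muscle precursors, and at 9 CPM in somite-like cells, the next class (SD, n = 4). The vimentin gene vim was at 462.8 ± 229.7 CPM in neural plate/spinal cord-like cells, a cluster led by elavl3, myt1a and stmn1b, which are genes of differentiating neurons, and the glial gene gfap at 112.8 ± 54.74 CPM in neural-like cells. The internexin gene inaa led in epidermis-like cells at 41.4 ± 10.4 CPM, and the neurofilament gene nefma in hatching gland-like cells at 70.1 ± 91.9 CPM. The type I keratin krt18b was at 60 ± 41.6 CPM in cluster 9. The remaining 11 kept genes, krt222, krt95, nefmb, krt1-c5, prph, krt15, krt98, inab, krt18a.2, krt1-19d and krt93, stayed below 10 CPM in every class.

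To ask whether loss of gpc4 or of dact1 and dact2 changed filament levels, UMIs were summed per embryo and compared by the quasi-likelihood test of edgeR, and p-values were adjusted by the Benjamini-Hochberg method across the whole gene table. Calls needed an adjusted p below 0.1 together with a log2 fold change past 0.58 in either direction. Every adjusted p below comes from this test unless another is named. The mutants were compared with each other without pairing by replicate number. Adding wildtype replicate 1 removed most calls in the whole gene table. The share of all genes called in dact1/2 and in gpc4 mutants was then 0.0415% and 0.119% in the whole embryo, 0.0774% and 0.105% in ectoderm cells, 0.0343% and 0.0918% in those of lateral plate, 0.0108% and 0.11% in those of paraxial mesoderm, 0% and 0.0927% in epidermis and 0% and 3.86% in periderm. In sums over several cell classes, such as the whole embryo, fewer cells of a type and less RNA per cell cannot be told apart. Within a class the same holds for a shift in the mix of its cells.

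In periderm-like cells of gpc4 mutants 7 of the 14 filament genes tested rose against wildtype and 0 fell, where 6.06% of all 2244 genes tested were called. These were krt4, krt17, cyt1l, krt92, krt99, krt97 and krt91. Here and against dact1/2 mutants krt91 passed the count filter only through the gpc4 mutants, where it is high. Its calls are included in the counts but carry no weight. Against dact1/2 mutants 10 of 14 were higher and 0 lower, with 8.16% of 2218 genes called, and krt5, krt8 and krt18a.1 joined the list. Between dact1/2 mutants and wildtype 0 of 13 were called, 2 had an unadjusted p under 0.05 (krt5 and krt18a.1), DESeq2 called 0, and 0% of all 2381 genes tested were called. The median log2 fold change of the filament genes tested was 0.96 in gpc4 mutants and -0.12 in dact1/2 mutants, while that of all genes was -0.01 in both.

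Among the genes whose gpc4 mutants lay above all 4 wildtype embryos was krt97, which stood at 657, 796, 535 and 546 CPM in wildtype replicates 1 to 4, at 452, 808 and 424 in dact1/2 mutants and at 1877, 4059 and 1410.0 in gpc4 mutants. Every gpc4 mutant lay above every other embryo. Against wildtype the log2 fold change was 2.1 (SE 0.32, adjusted p = 0.00407), with an adjusted p of 0.00896 with all 4 wildtype embryos, and against dact1/2 mutants it was 2.23 (SE 0.34, adjusted p = 0.00153).

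For krt99 the values were 594, 591, 535 and 735 CPM in wildtype, 502, 752 and 331 in the dact1/2 mutants and 1623, 3769 and 783 in the gpc4 mutants. Again no gpc4 mutant overlapped another group, but replicate 3 exceeded the highest dact1/2 mutant by little. Its log2 fold change was 1.88 against wildtype (SE 0.37, adjusted p = 0.011; 0.0179 with all 4 embryos) and 2.09 against dact1/2 mutants (SE 0.41, adjusted p = 0.00677). Without wildtype replicate 3 the adjusted p against wildtype was 0.103.

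In the run of neighbouring genes, krt92 was at 2395, 2003, 2123 and 3239 CPM in wildtype, 3065, 1974 and 1597 in the dact1/2 mutants and 7892, 6445 and 3697 in the gpc4 mutants, without overlap of the last group. Its log2 fold change was 1.40 against wildtype (SE 0.25, adjusted p = 0.0075; 0.0177 with all 4) and 1.54 against dact1/2 mutants (SE 0.27, adjusted p = 0.00372). The type I keratin krt17 was at 1713, 1637, 2199.8 and 3765 CPM in wildtype, 3553, 1628 and 1392 in the dact1/2 mutants and 7112, 8485 and 3572 in the gpc4 mutants. Wildtype replicate 4 lay above the lowest gpc4 mutant. For krt17 the log2 fold change was 1.44 against wildtype (SE 0.31, adjusted p = 0.0153; 0.0261 with all 4) and 1.64 against dact1/2 mutants (SE 0.34, adjusted p = 0.00856). Without wildtype replicate 3 its call against wildtype was lost (adjusted p = 0.129).

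The type I keratin cyt1l was at 1276, 2273, 1725 and 4115 CPM in wildtype, 4613, 3453 and 2708 in the dact1/2 mutants and 8142, 8077 and 4042 in the gpc4 mutants, so that wildtype replicate 4 and dact1/2 replicate 1 lay above the lowest gpc4 mutant. Its change was 1.42 on the log2 scale against wildtype (SE 0.30, adjusted p = 0.0156; 0.0332 with all 4) and 1.01 against dact1/2 mutants (SE 0.25, adjusted p = 0.0261). The first call was lost without wildtype replicate 3 (adjusted p = 0.116), and the second without gpc4 replicate 1 or 2 or dact1/2 replicate 3 (adjusted p = 0.132, 0.105 and 0.162). Its neighbour cyt1 did not pass the test, at 1318, 3326, 2047 and 7068 CPM in wildtype, 8724, 6038 and 4805 in the dact1/2 mutants and 9070.1, 10912 and 4982 in gpc4 mutants. The groups of cyt1 overlapped, and its log2 fold change in gpc4 mutants was 1.09 (SE 0.36, adjusted p = 0.123).

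The fifth gene of that run, krt91, depended on which wildtype embryos were used. It was at 1471 CPM in wildtype replicate 1 and at 19.3, 38.2 and 36.2 in replicates 2, 3 and 4, at 15.2, 17.1 and 25.0 in dact1/2 mutants and at 129.7, 387 and 94.0 in gpc4 mutants. The gpc4 mutants lay above all embryos except wildtype replicate 1. Its log2 fold change was 2.81 against replicates 2, 3 and 4 (SE 0.50, adjusted p = 0.00743), turned to -0.67 with all 4 (adjusted p = 0.822), and was 3.57 against dact1/2 mutants (SE 0.54, adjusted p = 0.00153). Only the gpc4 mutants carried krt91 past the count filter in the first and last of these tests. It was too low to be tested between dact1/2 mutants and wildtype. The 94.0 CPM of gpc4 replicate 3 came from a sum of 31915 UMIs.

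Among the type II keratins krt4 was at 8013, 9811, 10202 and 17017 CPM in wildtype, 13997, 7311 and 8468 in the dact1/2 mutants and 25402, 22834 and 13223 in the gpc4 mutants. Replicates 1 and 2 of the gpc4 mutants lay above all other embryos and replicate 3 within their range. Its log2 fold change was 0.82 against wildtype (SE 0.24, adjusted p = 0.0817), where the call was lost with all 4 embryos (adjusted p = 0.128), and 1.12 against dact1/2 mutants (SE 0.25, adjusted p = 0.0151). The call of krt4 against wildtype was also lost without wildtype replicate 2 or 3 or gpc4 replicate 1 or 2 (adjusted p = 0.22, 0.34, 0.366 and 0.18). For krt5 the values were 2281, 4417, 5202 and 8494 CPM in wildtype, 5167, 3231 and 3519 in the dact1/2 mutants and 7992, 9654 and 3979 in the gpc4 mutants, with overlap of all groups and a log2 fold change of 0.96 between the mutants (SE 0.27, adjusted p = 0.0431). Without gpc4 replicate 1 or 2 or dact1/2 replicate 2 or 3 krt5 was not called (adjusted p from 0.102 to 0.213).

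The simple epithelial pair passed the test between the mutants and not against wildtype. For krt18a.1 the values were 4989.8, 3994, 3324 and 7176 CPM in wildtype, 4207, 2423 and 2633 in the dact1/2 mutants and 9581, 8271 and 5107 in the gpc4 mutants. Its partner krt8 was at 2675, 1843, 1550.2 and 2479 CPM in wildtype, 2309, 1513 and 1448 in the dact1/2 mutants and 2459.6, 3008 and 2695 in gpc4 mutants. For both genes the gpc4 mutants lay above all dact1/2 mutants and overlapped wildtype. Between the mutants the log2 fold change was 1.40 for krt18a.1 (SE 0.24, adjusted p = 0.0035) and 0.69 for krt8 (SE 0.19, adjusted p = 0.0425), where the call of krt8 was lost without gpc4 replicate 1 or 2 or dact1/2 replicate 2 or 3 (adjusted p from 0.11 to 0.295). Against wildtype the change in gpc4 mutants did not pass the test, at 0.76 for krt18a.1 (adjusted p = 0.159) and 0.54 for krt8 (adjusted p = 0.129).

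**Figure D2:**
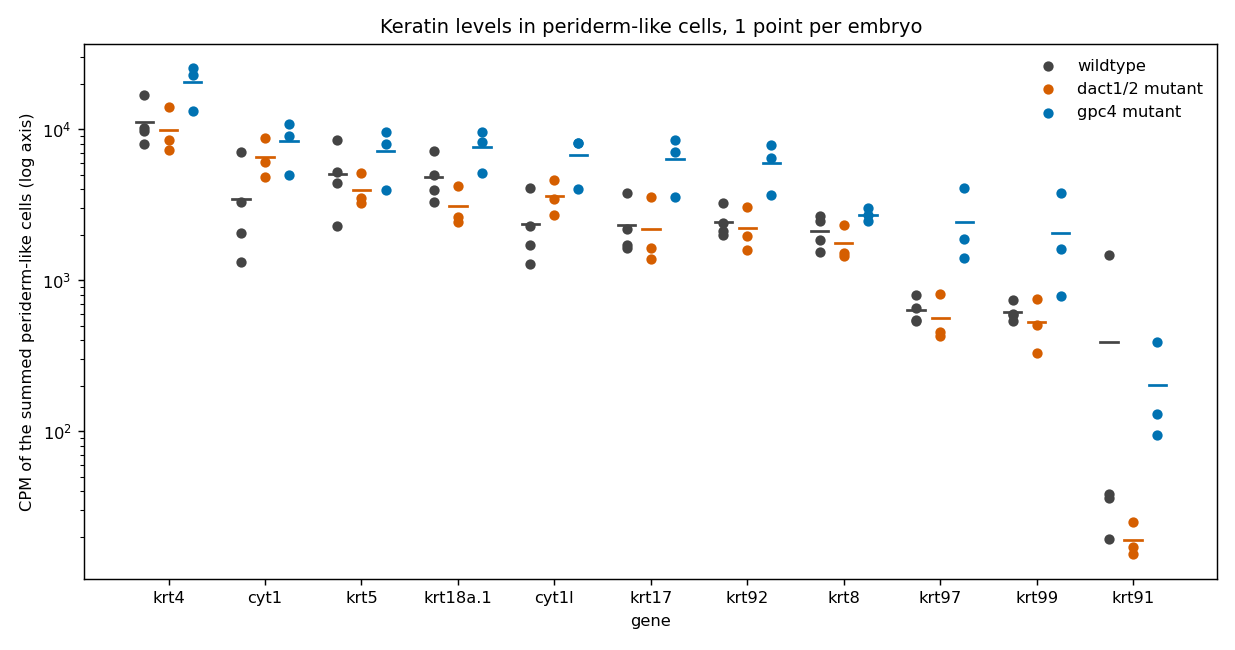
Level of each of the 11 keratins in the summed periderm-like cells, in CPM on a log axis, with 1 point per embryo and a bar at the mean of each genotype. For krt97, krt99 and krt92 the 3 gpc4 mutants lie above all other embryos, and for krt91 wildtype replicate 1 lies at 1471 CPM, far above the other wildtype embryos.

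No member other than the keratins passed the test in the periderm sum. Against wildtype in gpc4 mutants the log2 fold change was -0.67 for lmnb1 (adjusted p = 0.237), -0.75 for lmnb2 (adjusted p = 0.154) and -0.52 for gfap (adjusted p = 0.53).

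Genes other than keratins were higher in the same cells. Of the periderm markers used to name the cells, 9 of 9 tested were called higher in gpc4 mutants than in wildtype, with a median log2 fold change of 1.25, and 8 of 9 were higher than in dact1/2 mutants, with a median of 1.70. The ratio of the UMIs of the 11 keratins to those of the 14 marker genes found was 8.71, 7.78, 7.95 and 9.01 in wildtype, 10.35, 9.54 and 9.37 in the dact1/2 mutants and 6.46, 7.50 and 7.56 in gpc4 mutants. Every gpc4 mutant thus had fewer keratin UMIs per marker UMI than every wildtype embryo, and every dact1/2 mutant had more. With exact two-sided permutation tests of these means the differences from wildtype were 1.39 in the dact1/2 mutants and -1.19 in gpc4 mutants, both with p = 0.0571 (adjusted p = 0.0856 over 3 comparisons by the Benjamini-Hochberg method), where 4 embryos against 3 cannot give a p below 0.0286. Between the mutants the difference was -2.58, with an exact permutation p = 0.1, the smallest that 3 against 3 allow.

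The plakins and desmosome genes, which anchor keratin filaments at the cell border, gave 2 of 10 tested higher in gpc4 mutants than in wildtype, with a median log2 fold change of 0.62. These were evpla, an envoplakin gene (log2 fold change 0.83, SE 0.25, adjusted p = 0.0861; 0.171 with all 4 wildtype embryos), and jupa, a plakoglobin gene (1.13, SE 0.27, adjusted p = 0.0282; 0.0429 with all 4). Against dact1/2 mutants 7 of 9 were higher, namely evpla, jupa, ppl, pkp1b, dspa, perp and pleca, with a median of 1.25, and between dact1/2 mutants and wildtype 0 of 9 were called at a median of -0.70, with 5 at an unadjusted p under 0.05. Of the epidermis markers 1 of 6 rose and 0 fell in gpc4 mutants against wildtype (epcam, log2 fold change 1.15, adjusted p = 0.0255, list median -0.13), and against dact1/2 mutants 1 rose (epcam) and 2 fell, tp63 with a log2 fold change of -1.47 and cldni with -1.19.

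Per cell the separation was less. The median share of UMIs in filament genes over the periderm-like cells of an embryo was 2.85%, 2.69%, 3.19% and 4.31% in wildtype, 3.22%, 2.57% and 3.26% in the dact1/2 mutants and 5.71%, 3.81% and 4.99% in the gpc4 mutants, so that wildtype replicate 4 lay above the lowest gpc4 mutant. Sums give more weight to the cells with the most UMIs.

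The periderm sums were small. They held 16 to 39 cells and 144608 to 393160 UMIs per embryo, apart from gpc4 replicate 3 with 11 cells and 31915 UMIs. The share of periderm-like cells among the cells of an embryo was 2.42%, 1.72%, 1.27% and 2.55% in wildtype, 1.05%, 0.607% and 1.40% in the dact1/2 mutants and 3.27%, 0.877% and 0.591% in gpc4 mutants. Neither mutant was separated from wildtype, with differences of -0.97 percentage points in dact1/2 mutants (two-sided exact permutation p = 0.0857) and -0.41 in gpc4 mutants (exact permutation p = 0.686, turning to 0.082 points without gpc4 replicate 3).

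The count of 7 in gpc4 mutants against wildtype was 5 with all 4 wildtype embryos (krt92, cyt1l, krt17, krt99 and krt97), 3 without wildtype replicate 3 (krt91, krt92 and krt97), 10 without wildtype replicate 4 and 11 without gpc4 replicate 3. When the filament genes were allowed to place cells, the periderm-like class grew from 223 to 440 cells, 220 of them shared, and 2 of the 7 calls remained, krt91 and krt97. As above, calls of krt91 carry no weight, which leaves krt97 alone in this setting. The 220 cells that were added had a median of 0.96% of their UMIs in the keratins, against 3.64% in the shared cells, and 8 of the 10 calls between the mutants remained.

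In epidermis-like cells, the layer below, 0 of 18 filament genes were called in any comparison. Of all genes 0.567% were called in dact1/2 mutants against wildtype, 1.22% in gpc4 mutants against wildtype and 1.18% between the mutants, DESeq2 called 0 members in each, and 5, 0 and 2 members had an unadjusted p under 0.05. The median log2 fold change of the members was 0.04 in dact1/2 mutants, 0.09 in gpc4 mutants and 0.02 between them. There krt4 was at 785, 2449.9, 2024 and 2459 CPM in wildtype, 2428, 1933 and 1974 in the dact1/2 mutants and 2722, 1757 and 1845 in the gpc4 mutants, with wildtype replicate 1 lowest and all groups overlapping. When single embryos were left out, cyt1, cyt1l, inaa or vim was called in dact1/2 mutants (1 or 2 genes without wildtype replicate 3 or 4 or dact1/2 replicate 1 or 2), and krt5 or krt92 in gpc4 mutants (1 gene without gpc4 replicate 1 or 2). Most epidermis-like cells of gpc4 replicates 2 and 3 lay in cluster 13 and those of the other embryos in cluster 2.

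The gene nearest to a call in this layer was cyt1, at 153, 1326, 885 and 1624 CPM in wildtype, 1833, 1700.0 and 1799.6 in the dact1/2 mutants and 1333, 1284 and 1157 in the gpc4 mutants. All dact1/2 mutants lay above all other embryos. Its log2 fold change between the mutants was -0.56 (SE 0.13, adjusted p = 0.0805), which misses the fold threshold. The internexin gene inaa was at 51.0, 34.3, 30.7 and 49.6 CPM in wildtype, 14.6, 27.1 and 21.8 in the dact1/2 mutants and 24.9, 19.8 and 34.4 in gpc4 mutants, and the dact1/2 mutants lay below all wildtype embryos without passing the test (log2 fold change -0.77, SE 0.25, adjusted p = 0.267).

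In ectoderm, which here held neural crest-like cells, neural-like cells and those of neural plate/spinal cord, 2 of 16 filament genes rose in the dact1/2 mutants and 0 fell, with 2.01% of all genes called. The keratin cyt1 was at 32.1, 107, 70.4 and 119.8 CPM in wildtype, 175, 211 and 272 in the dact1/2 mutants and 115, 172 and 81.3 in gpc4 mutants. The levels of cyt1l were 29.1, 58.5, 45.9 and 68.0 CPM, 91.9, 104 and 116, and 79.6, 109.5 and 53.9, in the same order. For both genes all dact1/2 mutants lay above all wildtype embryos, with log2 fold changes of 1.21 for cyt1 (SE 0.18, adjusted p = 0.00487) and 0.92 for cyt1l (SE 0.14, adjusted p = 0.005). With all 4 wildtype embryos neither passed (adjusted p = 0.384 and 0.358), although replicate 1 had the lowest level of both.

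In gpc4 mutants against wildtype 0 of 15 filament genes were called in ectoderm, 4 had an unadjusted p under 0.05, DESeq2 called 0, and 2.28% of all genes were called. Without gpc4 replicate 3 cyt1l and krt17 were called higher. Between the mutants 1 of 16 differed, with 2.07% of all genes called, namely cyt1, with a log2 fold change of gpc4 over dact1/2 mutants equal to -0.84 (SE 0.21, adjusted p = 0.0759), which was not called without gpc4 replicate 1, without gpc4 replicate 3, or without dact1/2 replicate 2 or 3 (log2 fold changes of -0.78, -0.64, -0.88 and -0.66).

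The paraxial mesoderm sum held adaxial-like, presomitic mesoderm-like and somite-like cells. In it most filament genes had a positive fold change in both mutants, which share the wildtype embryos. The median log2 fold change of the filament genes tested was 0.99 in the dact1/2 mutants and 1.13 in gpc4 mutants, with 15 of 16 and 14 of 15 above 0, but few passed the test. Median filament shares per cell overlapped between groups in presomitic mesoderm-like cells (0.0421% to 0.0561% in wildtype, 0.0439% to 0.0815% in mutants). They also did in somite-like cells (0.0559% to 0.0731% and 0.0623% to 0.0867%), where single cells reached 3.51%. In adaxial-like cells the dact1/2 mutants (0.229% to 0.316%) lay above wildtype (0.137% to 0.216%), and gpc4 mutants overlapped it. In dact1/2 mutants 1 of 16 rose, with 1.03% of all genes called. This was krt8, at 23.1, 19.1, 41.0 and 32.0 CPM in wildtype, 67.0, 65.6 and 51.4 in the dact1/2 mutants and 73.1, 43.1 and 48.3 in gpc4 mutants. All mutants lay above all wildtype embryos, and the log2 fold change in dact1/2 mutants was 1.06 (SE 0.21, adjusted p = 0.0549; 0.227 with all 4 wildtype embryos). Without wildtype replicate 2 or 4, or dact1/2 replicate 1 or 2, it was not called (adjusted p = 0.138, 0.102, 0.136 and 0.123).

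In gpc4 mutants 2 of 15 rose in paraxial mesoderm, with 1.74% of all genes called. Wildtype embryos had 3.84, 7.04, 27.2 and 37.5 CPM of cyt1l, dact1/2 mutants 42.4, 62.6 and 92.6, and gpc4 mutants 96.0, 84.5 and 51.7. For krt17 the levels were 4.49, 4.53, 14.3 and 22.4 CPM in wildtype, 19.8, 21.3 and 45 in the dact1/2 mutants and 76.3, 80.6 and 25.3 in gpc4 mutants. The gpc4 mutants lay above all wildtype embryos for both, with log2 fold changes of 1.72 for cyt1l (SE 0.38, adjusted p = 0.0698; 0.32 with all 4) and 2.17 for krt17 (SE 0.46, adjusted p = 0.0557; 0.217 with all 4). DESeq2 called neither, and without wildtype replicate 2 or 3, or without gpc4 replicate 1 or 2, neither was called (adjusted p from 0.125 to 0.178). Wildtype replicate 2 fell below the count filter for krt17, at 4.53 CPM. The gene was tested only through the gpc4 mutants, where it is high, so its call is counted but carries no weight. Without gpc4 replicate 3 the count was 8 and without wildtype replicate 4 it was 4. Between the mutants 0 of 16 were called, 1 had an unadjusted p under 0.05, DESeq2 called 0, and 0.804% of all genes were called.

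The lateral plate sum here held pronephros-like, vasculogenic/myeloid-like, hematopoietic-like and heart field-like cells. Unnamed clusters were left out of it, among them cluster 10, led by hand2. In lateral plate mesoderm 3 of 14 filament genes rose in the dact1/2 mutants and 0 fell, with 1.48% of all genes called. Levels of krt8 were 102, 135, 133 and 143 CPM in wildtype, 238, 229 and 159 in the dact1/2 mutants and 204, 174 and 167 in the gpc4 mutants, so that all mutants lay above all wildtype embryos. The log2 fold change of krt8 in dact1/2 mutants was 0.69 (SE 0.14, adjusted p = 0.0266; 0.744 with all 4). For krt94 the levels were 3.21, 43.4, 15.1 and 22.9 CPM in wildtype, 68.9, 54.6 and 50.9 in the dact1/2 mutants and 26.2, 72.3 and 30.1 in gpc4 mutants. All dact1/2 mutants lay above all wildtype embryos, and its log2 fold change was 1.16 (SE 0.27, adjusted p = 0.0614; 0.821 with all 4). Without dact1/2 replicate 1 neither gene nor the third was called (adjusted p = 0.0903 at a log2 fold change of 0.575 for krt8, 0.174 for krt94). The call of krt8 was also lost without wildtype replicate 2 (adjusted p = 0.11), and that of krt94 without wildtype replicate 3 or 4 or dact1/2 replicate 3 (adjusted p = 0.146, 0.121 and 0.193).

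The third gene, cyt1, was at 10.7, 33.5, 36 and 22 CPM in wildtype, 143, 26.4 and 120.2 in the dact1/2 mutants and 168, 108 and 80.9 in gpc4 mutants. Replicate 2 of the dact1/2 mutants lay within the wildtype range, and the gpc4 mutants lay above all of it. Its log2 fold change was 1.72 in dact1/2 mutants (SE 0.42, adjusted p = 0.0686; 0.821 with all 4) and 1.99 in gpc4 mutants (SE 0.25, adjusted p = 0.00166; 0.0896 with all 4). The first was not called without wildtype replicate 2 or 4 or dact1/2 replicate 1 or 3 (adjusted p = 0.169, 0.138, 0.217 and 0.3), and the second was called whichever embryo was left out.

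In gpc4 mutants 3 of 15 filament genes rose in lateral plate mesoderm and 0 fell, with 1.5% of all genes called, and cyt1 was joined by krt92 and cyt1l. Levels of krt92 were 33.2, 18.6, 17.0 and 2.64 CPM in wildtype, 30.5, 2.51 and 31.0 in the dact1/2 mutants and 107, 35.9 and 31.0 in gpc4 mutants, where wildtype replicate 1 lay within the gpc4 range. Levels of cyt1l were 17.1, 19.2, 24.6 and 20.2 CPM, 69.5, 16.3 and 53.1, and 129, 41.5 and 59.4, in the same order, and no gpc4 mutant overlapped wildtype. The log2 fold change was 2.15 for krt92 (SE 0.51, adjusted p = 0.0698; 0.545 with all 4) and 1.88 for cyt1l (SE 0.36, adjusted p = 0.0292; 0.188 with all 4). Without wildtype replicate 2 only cyt1 was called (adjusted p = 0.158 for krt92, 0.143 for cyt1l), and krt92 was also lost without wildtype replicate 3 or 4 or gpc4 replicate 1 (adjusted p = 0.167, 0.153 and 0.201). Wildtype replicate 4 fell below the count filter for krt92, at 2.64 CPM. That gene was tested only through the gpc4 mutants, where it is high, so its call is counted but carries no weight. Without gpc4 replicate 2 or 3 the count was 6. Between the mutants 0 of 16 were called, 4 had an unadjusted p under 0.05, DESeq2 called 0, and 1.89% of all genes were called. With the replicate number as a block 5 were called higher in gpc4 mutants, krt4, krt17, cyt1l, krt92 and krt99.

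**Figure D3:**
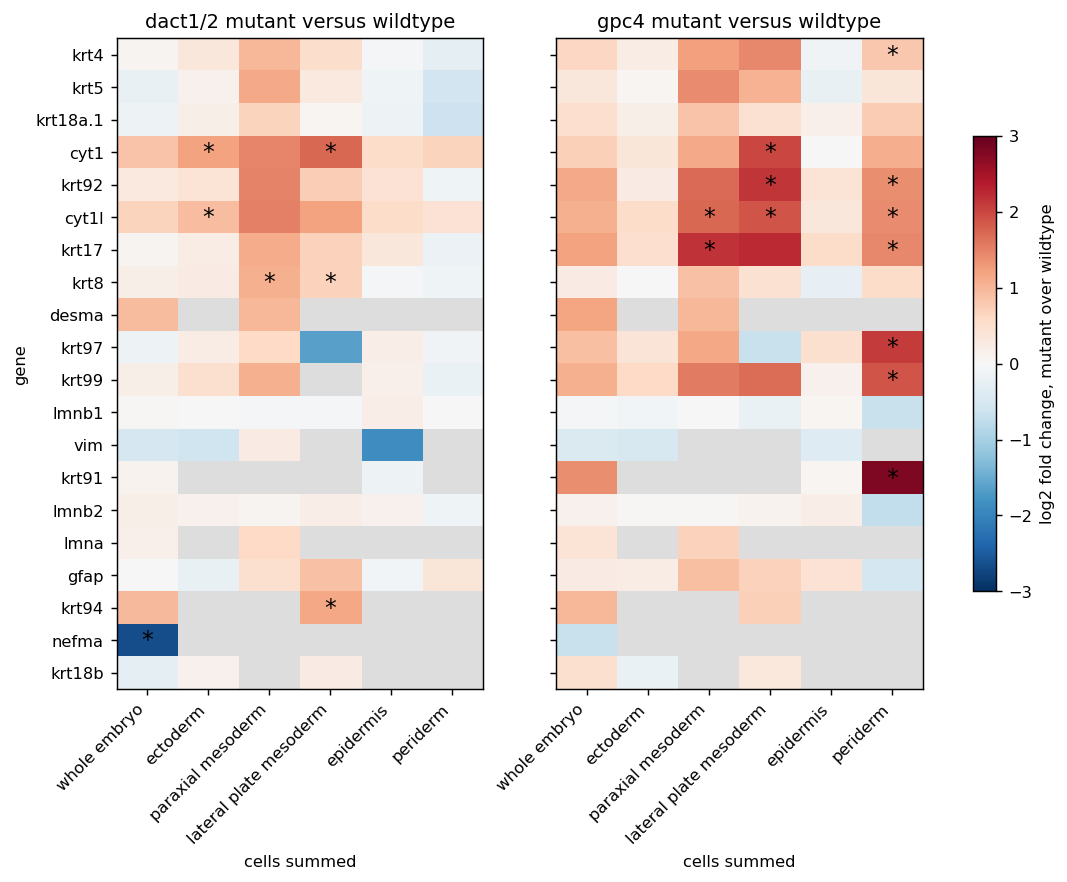
Log2 fold change of 20 named filament genes in each mutant against wildtype replicates 2, 3 and 4, in cells summed over the whole embryo and over 5 cell populations, with gray where a gene was not tested and a star where it was called. In gpc4 mutants there are 7 stars in the periderm column and 5 in the mesoderm columns. In dact1/2 mutants there are 6 in the ectoderm and mesoderm columns and 1, for nefma, in that of the whole embryo. The stars of krt91 and nefma, of krt17 in paraxial mesoderm and of krt92 in lateral plate mesoderm carry no weight. In these sums each gene passed the count filter only through the group where it is high.

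Medians of the periderm markers lay above 0 in mesoderm as well. In paraxial mesoderm the median log2 fold change of the periderm markers tested was 1.09 in dact1/2 mutants (5 genes, 0 called) and 1.33 in gpc4 mutants (5 genes, 1 called), and in lateral plate mesoderm it was 0.57 (2 genes, 0 called) and 1.46 (3 genes, 0 called). In ectoderm it was 0.41 and 0.58 (8 genes each, 0 and 1 called). In somite-like cells the 11 keratins together had 144.6 to 438.7 CPM in wildtype, 695.2 to 1023 in the dact1/2 mutants and 292.2 to 1063 in gpc4 mutants, while the summed periderm markers had 14.58 to 87.17, 102.7 to 133.5 and 58.07 to 150.7 CPM. The median ratio of keratin to marker UMIs in wildtype was 5.75 in somite-like, 6.01 in neural-like and 4.17 in epidermis-like cells, against 8.33 in periderm-like cells. It was above that of periderm in vasculogenic/myeloid-like (12.7), hematopoietic-like (11.4) and heart field-like cells (9.86) and in cluster 18 (12.06). In every other class it was below. The marker list holds cfl1l, a leading gene of both epidermis-like clusters, so the ratio there does not rest on periderm genes alone. A part of free RNA from periderm cells in the keratin levels of other classes was not tested beyond these ratios.

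**Figure D4:**
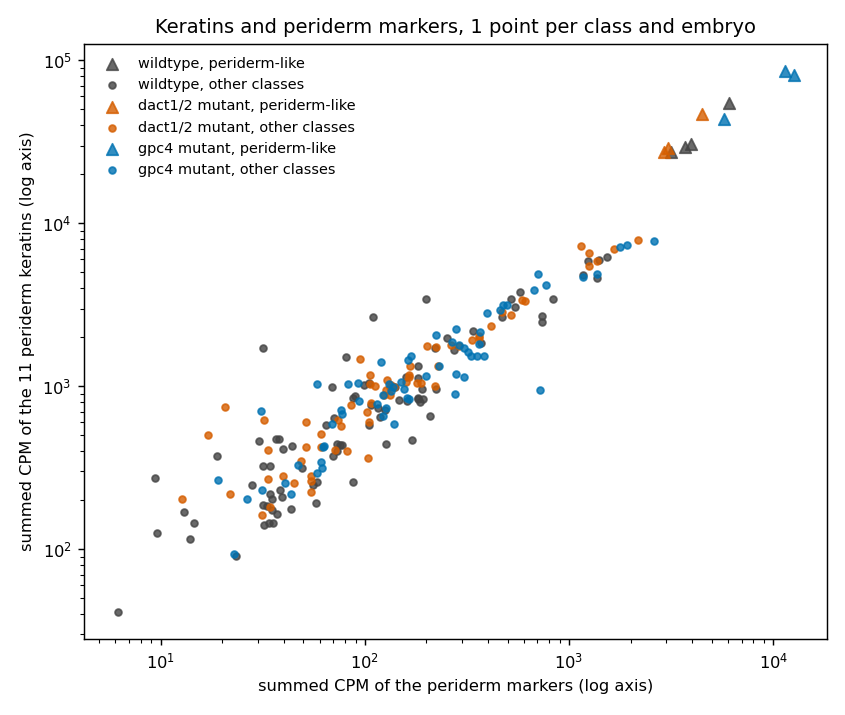
Summed level of the 11 periderm keratins against the summed level of the periderm markers, both in CPM on log axes, with 1 point per cell class and embryo and triangles for periderm-like cells. Points where either sum was 0 are not shown. Keratins and markers are low or high together over all classes. The triangles lie between 27380 and 54670 CPM of keratins in wildtype, 27350 and 46610 in the dact1/2 mutants and 43580 and 85900 in gpc4 mutants. All groups thus overlap.

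Over the whole embryo the filament genes together took 1795, 1953, 2344 and 3193 CPM in wildtype, 2817, 2609 and 2615 in the dact1/2 mutants and 5300, 3134 and 2241 in the gpc4 mutants. The totals of all groups overlapped, and gpc4 replicate 1 was highest. In gpc4 mutants 0 of 24 genes were called against wildtype, 10 had an unadjusted p under 0.05, DESeq2 called 1 (krt91), and 2.41% of all genes were called. The median log2 fold change of the members was 0.50, beside 0.97 for 12 periderm markers, of which 0 were called. Without gpc4 replicate 3 the count was 4, with krt91, krt97 and krt99 higher and vim lower, and without gpc4 replicate 2 it was 1 (desma).

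In dact1/2 mutants 1 of 24 was called in the whole embryo, with 2.21% of all genes called. This was nefma, a neurofilament gene, at 0.948, 4.14, 1.11 and 1.55 CPM in wildtype, 0.349, 0.106 and 0.614 in the dact1/2 mutants and 2.52, 0.644 and 0.885 in gpc4 mutants. All dact1/2 mutants lay below all other embryos, with a change of -2.66 on the log2 scale (SE 0.67, adjusted p = 0.0995; 0.483 with all 4). The gene passed the count filter only through the wildtype embryos, where it is high, so its call is counted but carries no weight. Of the 93 wildtype UMIs of nefma 73 lay in hatching gland-like cells, where it was at 0, 203, 20.3 and 56.7 CPM in wildtype, 3.74, 0 and 0 in the dact1/2 mutants and 166, 16.7 and 51.8 in gpc4 mutants, from 5 to 60 cells per embryo. The call was lost when any of dact1/2 replicates 1, 2 and 3 or wildtype replicates 2, 3 and 4 was left out (adjusted p from 0.106 to 0.232). Without wildtype replicate 4 cyt1 and cyt1l were called higher in its place, and without wildtype replicate 2 krt94.

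Between the mutants 1 of 23 differed in the whole embryo, with 2.04% of all genes called. The type I keratin krt18b was at 0.271, 6.48, 5.57 and 5.36 CPM in wildtype, 4.89, 5.04 and 3.51 in the dact1/2 mutants and 7.95, 7.58 and 7.77 in gpc4 mutants. All gpc4 mutants lay above all other embryos, and wildtype replicate 1 was lowest. The log2 fold change was 0.74 (SE 0.18, adjusted p = 0.0987), and it was not called when any 1 of the 6 mutants was left out (adjusted p from 0.146 to 0.228). Without gpc4 replicate 3 the genes called were krt17, krt91, krt97 and krt99 in its place. In cluster 9, where krt18b was highest, the levels were 8.47, 67.9, 54.2 and 109 CPM in wildtype, 54.5, 49.9 and 41.0 in the dact1/2 mutants and 94.8, 72.1 and 83.4 in gpc4 mutants, with the mutants separated there too.

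Lamins were not called in any of the comparisons above. In the whole embryo lmnb1 lay between 179 and 217 CPM in all 10 embryos, with log2 fold changes of 0.02 in the dact1/2 mutants and -0.06 in gpc4 mutants (SE 0.08 each, adjusted p = 0.908 and 0.749). For lmnb2 the values lay between 199.8 and 284 CPM, with changes of 0.18 and 0.13 (SE 0.10 and 0.14, adjusted p = 0.353 and 0.689). With embryos left out or another scaling there were exceptions. In periderm-like cells of gpc4 mutants lmnb1 was called lower without gpc4 replicate 3 (log2 fold change -0.82, adjusted p = 0.0929) and lmnb2 was called lower without normalization factors (-0.86, adjusted p = 0.0904). In paraxial mesoderm lmna was called higher in dact1/2 mutants without replicate 3 of that group (0.91, adjusted p = 0.0943), and in gpc4 mutants without their replicate 3 (1.00, adjusted p = 0.0732) or without the count filter (0.69, adjusted p = 0.025). In adaxial-like cells lmna was at 165, 222, 138 and 169 CPM in wildtype, 177, 246 and 77.3 in the dact1/2 mutants and 195, 149.8 and 81.3 in gpc4 mutants, and the groups overlapped.

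For the muscle gene desma the whole embryo held 12.2, 17.4, 19.2 and 9.94 CPM in wildtype, 41.7, 21.9 and 20.2 in the dact1/2 mutants and 53.7, 24.5 and 23.8 in gpc4 mutants. All mutants lay above all wildtype embryos, but the changes did not pass the test, at 0.95 in dact1/2 mutants (SE 0.31, adjusted p = 0.166) and 1.19 in gpc4 mutants (SE 0.35, adjusted p = 0.15). Within adaxial-like cells desma was at 784, 894, 959 and 895 CPM in wildtype, 1152, 1072 and 766 in the dact1/2 mutants and 996, 657 and 760.4 in gpc4 mutants, where the groups overlapped. The share of adaxial-like cells was 1.97%, 1.45%, 1.64% and 1.17% in wildtype, 2.80%, 1.56% and 1.47% in the dact1/2 mutants and 3.94%, 2.14% and 3.49% in the gpc4 mutants, from 11 to 65 cells per embryo. All gpc4 mutants lay above all wildtype embryos, and replicates 2 and 3 of the dact1/2 mutants lay within the wildtype range.

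Neither vim nor gfap was called in these comparisons. In neural plate/spinal cord-like cells vim was at 125, 545, 543 and 639 CPM in wildtype, 447, 337 and 287 in the dact1/2 mutants and 249.5, 294 and 536 in gpc4 mutants. All mutants lay below wildtype replicates 2, 3 and 4 and above replicate 1. Over all ectoderm the log2 fold change of vim was -0.47 in gpc4 mutants (SE 0.11, adjusted p = 0.0504), which misses the fold threshold, with 0.917 as the adjusted p with all 4 wildtype embryos. In neural-like cells gfap was at 33.3, 154, 142 and 121 CPM in wildtype, 149, 92.4 and 100.1 in the dact1/2 mutants and 189, 168 and 137 in the gpc4 mutants, where wildtype replicate 1 was again far below the others. Over all ectoderm the log2 fold change of gfap was -0.23 in dact1/2 mutants (adjusted p = 0.544) and 0.22 in gpc4 mutants (adjusted p = 0.481). Some were called when an embryo was left out or in another setting. Without dact1/2 replicate 1 vim was lower in dact1/2 mutants in the whole embryo (log2 fold change -0.98, adjusted p = 0.0423), ectoderm (-1.005, adjusted p = 0.00777) and epidermis (-3.19, adjusted p = 0.0277), and without wildtype replicate 4 it was lower there in epidermis (-2.33, adjusted p = 0.0315). Without gpc4 replicate 3 vim was lower in the whole gpc4 mutant embryo (-0.64, adjusted p = 0.0597), and without dact1/2 replicate 1 gfap was higher in ectoderm of gpc4 than of dact1/2 mutants (0.67, adjusted p = 0.0422). With the replicate number as a block only replicates 2 and 3 of the groups are set against each other. In that setting vim was lower in dact1/2 mutants in the whole embryo (-1.01, adjusted p = 0.0139) and ectoderm (-0.96, adjusted p = 0.000222). In epidermis it was lower there with the block (-3.74, adjusted p = 0.000199) and without the count filter (-1.82, adjusted p = 2.82e-07).

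The class that leads krt94 is part of the lateral plate sum. In vasculogenic/myeloid-like cells krt94 was at 11.7, 175, 48.4 and 64.7 CPM in wildtype, 260.1, 198 and 197 in the dact1/2 mutants and 135, 205 and 145 in the gpc4 mutants. All dact1/2 mutants lay above all wildtype embryos, and gpc4 mutants overlapped wildtype replicate 2.

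**Figure D5:**
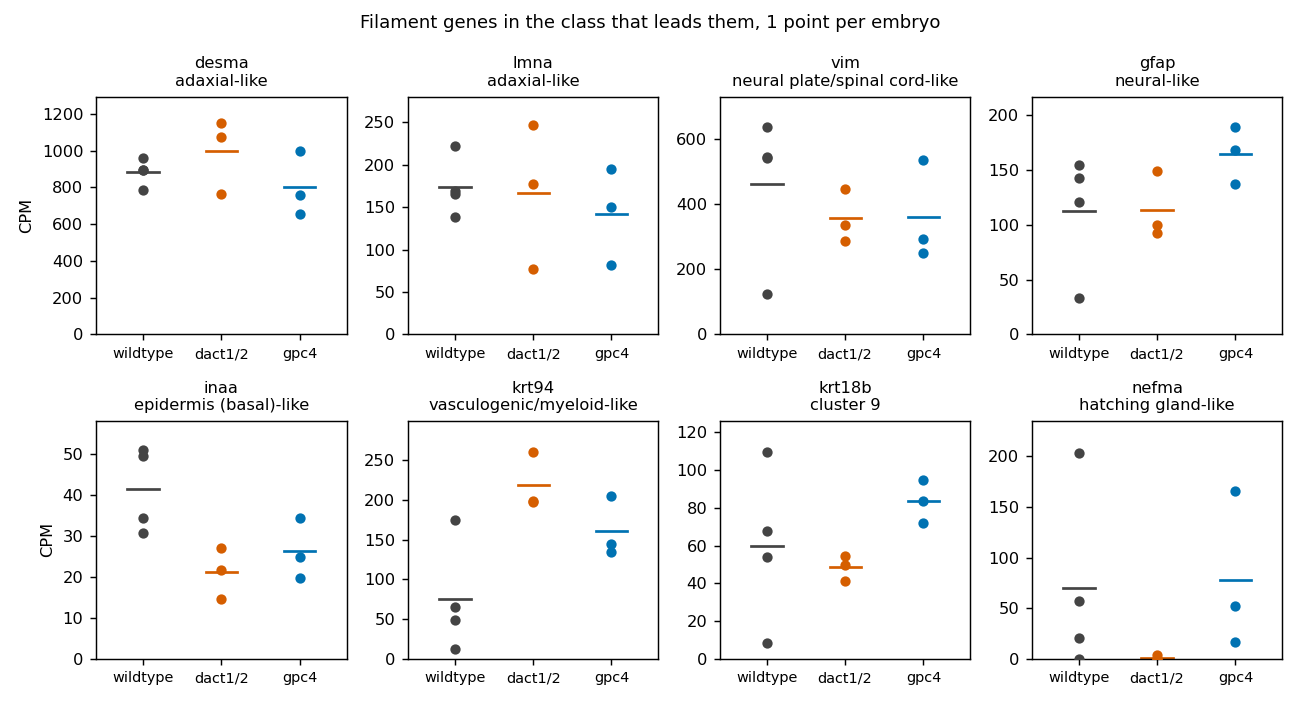
Level in CPM of 8 filament genes in the cell class that leads each of them, with 1 point per embryo, a bar at the mean of each genotype and axes that start at 0. For krt94 the dact1/2 mutants (197 to 260.1 CPM) lie above wildtype, for inaa they lie below it (14.6 to 27.1 CPM), and for vim, gfap and krt18b wildtype replicate 1 is the lowest point.

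In endoderm-like cells the simple epithelial keratins overlapped between all groups. There krt18a.1 was at 1661, 999, 766 and 1489 CPM in wildtype, 1228, 779 and 1051 in the dact1/2 mutants and 1429.6, 1197 and 952 in gpc4 mutants, and krt8 was at 623, 711, 505 and 1034 CPM, 772, 681 and 579.8, and 999.6, 777 and 853. In preplacodal-like cells krt97 was at 214, 333, 313 and 269 CPM in wildtype, 188, 212 and 246 in the dact1/2 mutants and 584, 263 and 349.5 in gpc4 mutants. The gpc4 mutants lay above the dact1/2 mutants there and overlapped wildtype.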

How the data were processed

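Libraries were made with the 10x Genomics 3' kit (version 3), 1 per embryo. The authors aligned reads to GRCz11 with Cell Ranger 6.1.0 and deposited the UMI counts of each gene and droplet, without normalization. Members and lists were chosen with earlier results of these data known.

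Cells with at least 1500 UMIs, 750 genes, under 5% mitochondrial UMIs and a log10 gene to log10 UMI ratio above 80% were kept, and so were genes detected in no fewer than 1 of 3000 cells. Normalization used Seurat 5.3.0 with sctransform 0.4.2 under R 4.3.3. Of 3000 variable genes 22 members were left out, the embryo means were removed from the residuals in place of the authors' Harmony integration, and 40 principal components from irlba 2.3.5.1 were given to Louvain clustering at resolution 0.8. Clusters were named from fixed markers and need not hold the same cells as those of the study. Scrublet in scanpy 1.11.5 called 13 doublets (0.079%), too few for the caller to have worked.

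Sums per embryo were tested with edgeR 4.0.16 (limma 3.58.1), filterByExpr and TMM. The fit was tested on simulated counts. Text names every member called in a comparison, those at 100 CPM or more in a class, and vim, gfap and the lamins, and a few others (inaa, krt96 and all members below 10 CPM) were named after their values were seen. Alternatives were all 4 wildtype embryos, DESeq2 1.42.0, other scaling, no count filter, the replicate number as a block, other clusterings, doublets left out and each embryo left out. Chosen after seeing the data were all deposited droplets, the whole embryo without a cluster of low depth led by rrm2, and all 4 wildtype embryos with the block.

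Same-numbered dact1/2 and gpc4 mutants deviated together from their group means (correlations of 0.257, 0.292 and 0.147 over genes), so their numbers may pair them. Those of wildtype and mutants did not (-0.163 to 0.09). The reported tests between the mutants do not use this pairing, and the block was an alternative whose counts are given below.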

Additional observations from a re-analysis of the deposited data

Results flagged for a closer look

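Of 20 named filament genes tested for a wildtype embryo far from the other 3 in the whole embryo, 2 were found, where chance gives about 1 in 20 groups. The level of krt91 was 67.0 CPM in wildtype replicate 1 and 1.53 to 3.42 in the others. The level of krt99 was 40.4 CPM in wildtype replicate 4 and 23.5 to 24.8 in the others.

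The other results were picked out because the effect in gpc4 mutants differed from that in dact1/2 mutants by the direct test of the mutants against each other. In the whole embryo krt18b differed by 0.74 on the log2 scale, and in ectoderm cyt1 by -0.84. In periderm-like cells the log2 differences were 1.12 for krt4, 0.96 for krt5, 0.69 for krt8, 1.40 for krt18a.1, 1.64 for krt17, 1.01 for cyt1l, 1.54 for krt92, 2.09 for krt99, 2.23 for krt97 and 3.57 for krt91. The last of these genes passed the count filter only through the gpc4 mutants.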

How the results depend on the processing

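Apart from leaving out single embryos, of 168 recomputed counts of called members 122 stayed within 1.5 times the count reported and 46 did not, and of the recomputed fold changes 233 kept direction and call, 51 lost the call and 2 reversed, both of krt91 in periderm-like cells of gpc4 mutants (-0.67 with all 4 wildtype embryos, -0.15 with the block added). All 34 recomputed levels moved by less than the spread between embryos, a result that the 2 settings used could hardly fail to give. Leaving 1 of 4 embryos out cannot move a mean by as much as their SD, and few doublets were called. For krt91 in periderm-like cells the mean still fell from 391.2 to 31.21 CPM without wildtype replicate 1. The 4 recomputed differences in the share of periderm-like cells, with no embryo left out, stayed negative. Those with doublets left out could hardly move, since only 13 of 16449 cells were called. The same holds for the counts, fold changes and levels recomputed in that setting. With members used in clustering the dact1/2 difference from wildtype went from -0.97 to -0.333 percentage points. That move was larger than the SD between embryos (0.398 in dact1/2 mutants, 0.599 in wildtype). The gpc4 difference went from -0.411 to -0.099 points in the same setting. The cause was not tested for any of these, and in periderm the 31915 UMIs of gpc4 replicate 3 limit precision.

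Counts are given for dact1/2 against wildtype, gpc4 against wildtype and gpc4 against dact1/2. Except with all 4 wildtype embryos, the share of all genes called was not computed for these settings or with embryos left out. Such counts, here and above, cannot be read as particular to the filament genes. With all 4 wildtype embryos 0 members were called in dact1/2 mutants in the whole embryo, ectoderm, paraxial and lateral plate mesoderm, and 0 (paraxial) and 1 (lateral plate) in gpc4 mutants. With this set and the replicate block together, each of these was 0. DESeq2 called 3, 1 and 2 in the whole embryo, 0 between the mutants in ectoderm and 0 in gpc4 mutants in paraxial mesoderm. Without normalization factors 0 were called between the mutants in the whole embryo and 0 in dact1/2 mutants in paraxial mesoderm. Without the count filter there were 0 between the mutants in the whole embryo, 2 (gpc4) and 3 (between mutants) in ectoderm, 10, 13 and 1 in the paraxial sums, 5, 8 and 6 in those of lateral plate, 3 (dact1/2) and 2 (between mutants) in epidermis, and 3 in dact1/2 mutants in periderm.

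Wildtype and mutants share only a replicate number. With that number as a block, mutant replicate 1 and wildtype replicate 4 have no partner. Fits against wildtype replicates 2, 3 and 4 thus set only replicates 2 and 3 of the groups against each other. In these fits dact1/2 mutants had 3 calls in the whole embryo, 10 in paraxial mesoderm, 2 in epidermis and 2 in periderm. The gpc4 mutants had 8 in paraxial mesoderm and 1 in epidermis. Between the mutants the block gave 5 in lateral plate mesoderm and changed no other count. With members used in clustering the counts were 0 between the mutants in ectoderm, 5 in dact1/2 mutants in paraxial mesoderm, 2 in dact1/2 and 2 in gpc4 mutants in periderm, and at resolution 0.3 there was 1 in dact1/2 mutants in epidermis. With all deposited droplets 0 were called in dact1/2 mutants and 0 between the mutants in the whole embryo, and without the rrm2-led cluster 0 in dact1/2 mutants.

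With each embryo left out in turn, the counts ranged over 0 to 2, 0 to 4 and 0 to 4 in the whole embryo, 2 to 3, 0 to 2 and 0 to 2 in ectoderm, 0 to 4, 0 to 8 and 0 to 1 in the paraxial sums, 0 to 6, 1 to 6 and 0 to 2 in those of lateral plate, 0 to 2, 0 to 1 and 0 to 0 in epidermis, and 0 to 2, 3 to 11 and 7 to 11 in periderm. The difference in the share of periderm-like cells lay between -1.208 and -0.764 points for dact1/2 and between -1.255 and 0.082 for gpc4 mutants.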
